A study of Mus musculus with 6 samples.

Results

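The genes described here are the hnRNP and SR splicing factor genes of the mouse left ventricle, chosen by name as every gene whose symbol begins with Hnrnp or with Srsf and a number, pseudogenes left out. The rule found 31 genes, 20 Hnrnp and 11 Srsf, of 46072 genes in the tables. RNA was recovered by immunoprecipitation with an antibody against EZH2, the methyltransferase of the Polycomb repressive complex PRC2, or with control IgG, and was then sequenced (RIP-seq). Male mice aged 10 weeks carried a minipump that gave angiotensin II (AngII) at 1 mg/kg/min for 4 or 24 h, or were Sham mice. The protocol gives saline for Sham and the treatment label reads Untreated. Each of the 3 groups gave 1 IgG and 1 anti-EZH2 library, and each library mixed 2 RIP products, so there were 6 libraries and no replicate of any of them. The strain label reads C57BL/6 for the Sham libraries and the AngII IgG libraries, C57BL/7 for AngII 4 h anti-EZH2 and C57BL/8 for AngII 24 h anti-EZH2. No transgene or deletion is labelled in any group, and all libraries came from whole left ventricle tissue with its mixture of cell types.

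Heterogeneous nuclear ribonucleoproteins (hnRNPs) coat nascent transcripts and often keep the splicing machinery away from an exon. SR proteins, named for their serine and arginine repeats, bind exons and often help the machinery to use them. Many genes of both families control their own level by splicing in an exon that sends the transcript to nonsense-mediated decay, the pathway that degrades messages with an early stop codon.

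Values are FPKM, fragments scaled by transcript length and library size, so levels of different genes can be compared per length. The tables hold no read counts, and the depth was inferred from the steps between low FPKM values at 3800000 to 7910000 fragments a library. This depth is uncertain by a factor of 2, and a depth 2 times as large made more of the low values whole numbers of reads. The mitochondrial share of FPKM was 6.72% in the AngII 4 h anti-EZH2 library and 31.3% in the AngII 24 h anti-EZH2 library, against 12.0% to 13.9% in the other 4. Ezh2 itself, the mRNA of the antibody's target protein, was at 1.05 to 2.06 FPKM in the IgG libraries and at 0.266 to 1.19 FPKM in the anti-EZH2 libraries, with wide intervals. The 10 cardiomyocyte markers summed to between 5790 and 10100 FPKM, far above every other list. Summed markers ranged over the libraries from 13.1 to 30.2 FPKM for 6 endothelial genes, 49.9 to 74.5 for 6 fibroblast genes, 1.96 to 5.09 for 6 leukocyte genes, 2.4 to 7.54 for 4 smooth muscle genes, 38.7 to 70.6 for 4 adipocyte genes and 587 to 1450 for 5 erythroid genes. Cd3e of T cells and Plin1 of adipocytes were at 0 in all 6 libraries, and nearly all of the adipocyte sum was Fabp4. The endothelial, leukocyte, smooth muscle and adipocyte sums were lowest in the AngII 24 h anti-EZH2 library, and their part in the values below was not tested.

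The hnRNP and SR genes were expressed at low to moderate levels. Of the 31 genes, 30 were above 0 in all 6 libraries, 25 were above 1 FPKM in all 6, and 30 were above 1 FPKM in at least 1. The exception was Srsf12, a little-expressed SR-like gene, which was listed at 0 in 5 libraries and at 0.304 FPKM in AngII 4 h IgG. Summed over the family, the Hnrnp genes reached between 101 and 187 FPKM a library and the Srsf genes between 31.0 and 50.8. Both sums were lowest in AngII 24 h anti-EZH2 and highest in AngII 24 h IgG. Without Hnrnph1, whose 45.5 FPKM in AngII 24 h IgG lies outside its own deposited interval, the Hnrnp sum was 141 in both AngII IgG libraries. Every FPKM was deposited with an interval, whose half-width had a median of 46.0% of the FPKM over the 181 values above 0. Across 30 genes, the relative width was smaller at higher mean FPKM (Spearman's rho -0.54, a description across genes that share libraries).

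**Figure D1:**
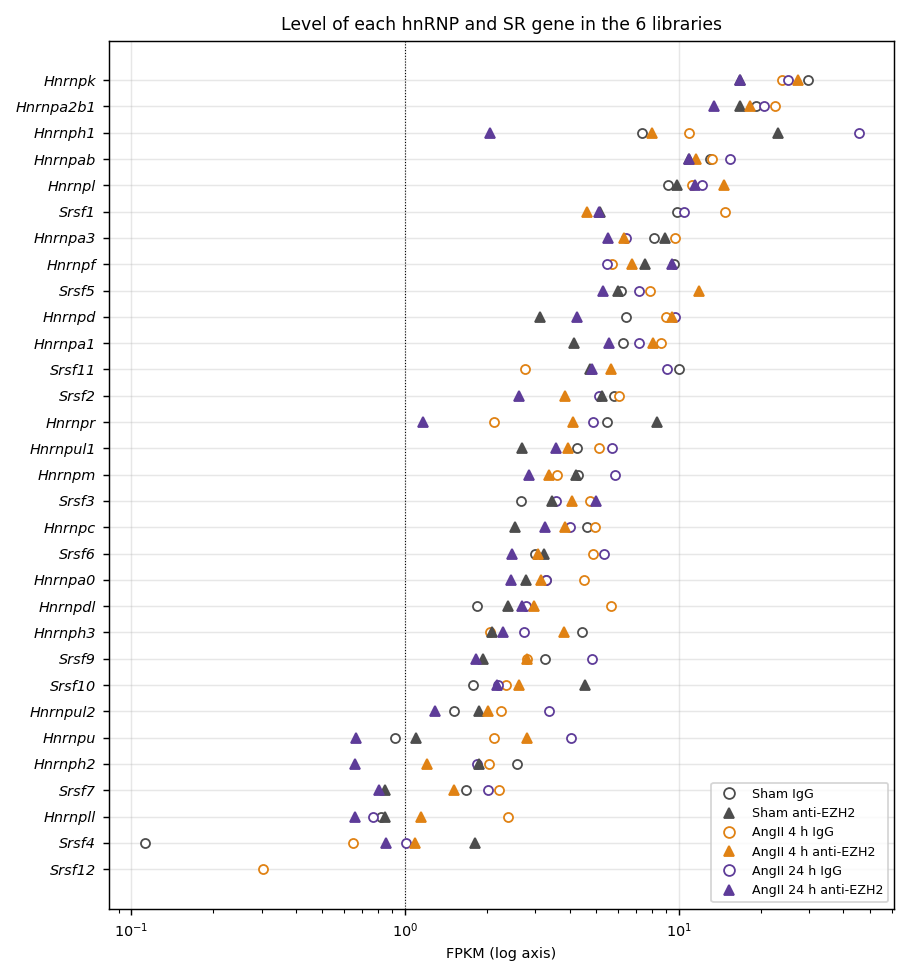
FPKM (log axis) of each hnRNP and SR gene in the 6 libraries, ordered by mean FPKM, with open circles for IgG, triangles for anti-EZH2 and colours for the groups; values of 0 are not drawn. The ranges differ between genes, from 16.8 to 29.6 FPKM for Hnrnpk to 2.04 to 45.5 for Hnrnph1. Srsf4 spans 0.112 to 1.80 FPKM, Hnrnpr 1.17 to 8.34 and Hnrnpu 0.663 to 4.04.

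The comparison of anti-EZH2 with IgG asks which transcripts were recovered more with the EZH2 antibody than with an antibody of no target. A gene was compared when it was above 1 FPKM in at least 1 of the 2 libraries and above 0 in both, and was counted when its ratio passed 2-fold. In Sham, 3 of 29 members were past 2-fold higher and 3 past 2-fold lower in anti-EZH2, where 14.3% of all compared genes were higher and 22.6% lower. At AngII 4 h, 1 of 30 was higher and 2 were lower, beside 12.8% and 14.3% of all genes. At AngII 24 h, 0 of 29 were higher and 11 were lower (37.9%), beside 9.35% and 35.7% of all genes. The share of lower members at AngII 24 h was thus close to that of all genes, and in Sham and at AngII 4 h the members' shares lay below the background in both directions.

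The median log2 ratio of the members was -0.20, -0.17 and -0.61 in the Sham, 4 h and 24 h groups. That of all compared genes was -0.31, -0.11 and -0.65. Relative to the median ratio of the 4846 genes above 1 FPKM in all 6 libraries, which was 0.822, 0.925 and 0.653 in the 3 groups, the members' median ratio was 1.06, 0.961 and 1.01. Of the 11 lower at AngII 24 h, 10 have an entry in a second table, deposited for the whole series and normalized separately, where 3 were also past 2-fold, Hnrnph1, Hnrnpr and Hnrnpd, and 7 were not. After division by the median of all genes, 3 members were higher and 0 lower in Sham, 3 higher and 1 lower at AngII 4 h, and 2 higher and 3 lower at AngII 24 h. The shares of all genes past 2-fold on that scale were not counted, so these counts have no background beside them.

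**Figure D2:**
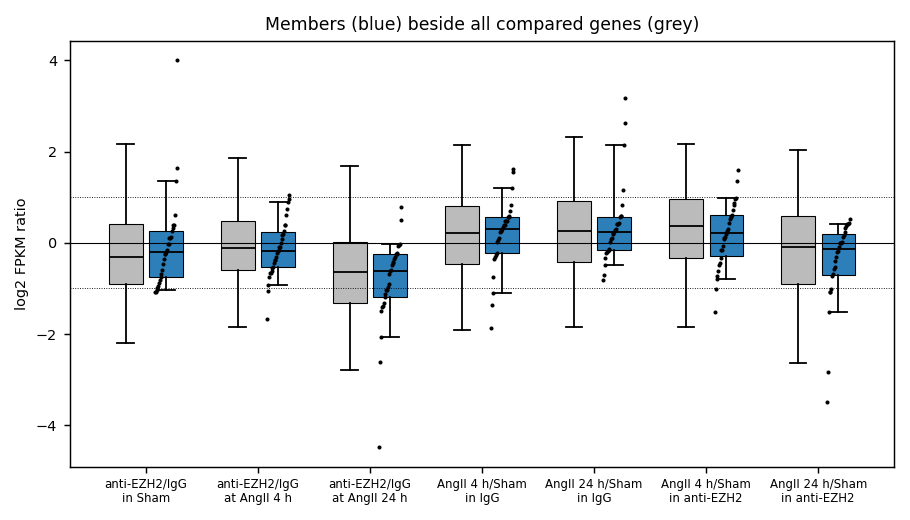
Log2 FPKM ratio in the 7 comparisons for all compared genes (grey boxes) and for the hnRNP and SR genes (blue boxes, black points for single genes). Boxes span the quartiles with a line at the median, whiskers reach the 5th and 95th percentiles, and dotted lines mark 2-fold; the blue medians lie close to the grey ones in each comparison.

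Counting the members whose deposited intervals did not overlap, at any fold, 0 were higher and 1 lower in Sham, beside 2.14% and 4.52% of all genes. At AngII 4 h these counts were 0 and 1, beside 1.63% and 2.93%. At AngII 24 h they were 0 and 3, beside 0.625% and 10.9%.

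No member was higher in anti-EZH2 in all 3 groups, and 12 of the 29 compared in all 3 (41.4%) were lower in all 3. Among all 7027 genes compared in all 3 groups, 5.55% were higher and 31.8% lower throughout. Once each ratio was divided by the median of all genes, 4 members (13.8%) were lower and 4 higher in all 3 groups, beside 14.8% and 13.3% of all genes. In the table of the whole series, 2 of the 12 genes first counted as lower were lower in all 3 groups (Hnrnph2 and Srsf7). Of the 28 members with values there, 3 were lower and 5 higher in all 3. Its median ratio of all genes was 0.99, 1.1 and 1.02, and the matching shares of all genes were not counted there. No member was past 2-fold in the same direction in all 3 groups.

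**Figure D3:**
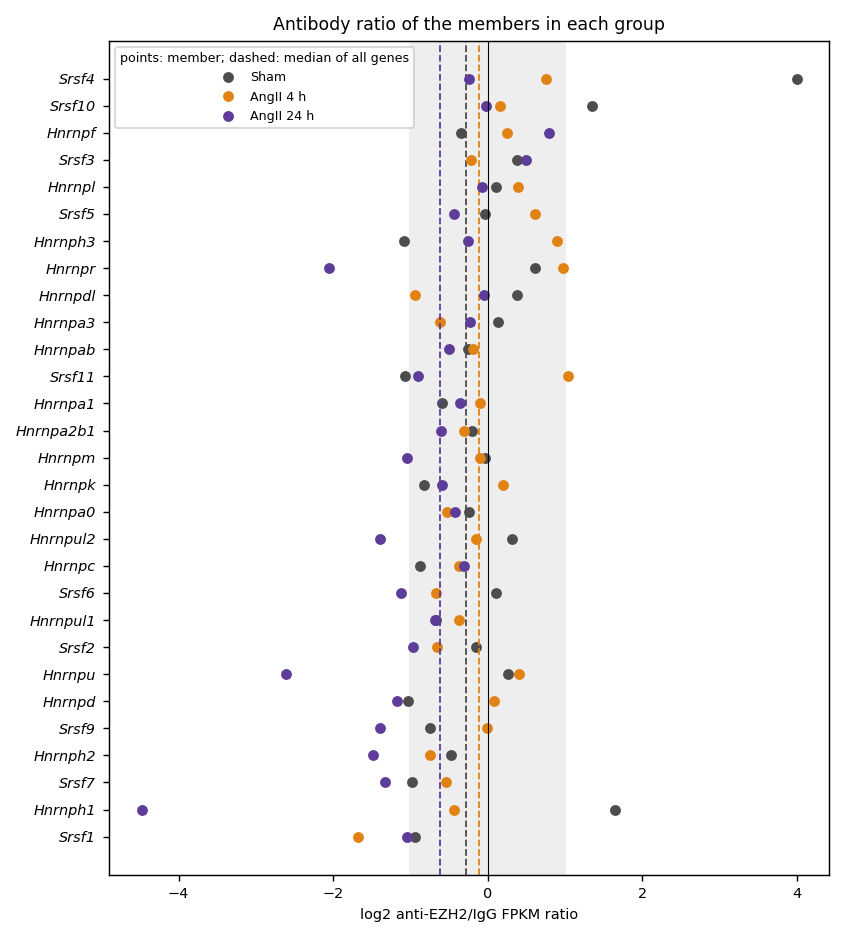
Log2 anti-EZH2/IgG ratio of each compared member in the 3 groups, ordered by the mean over the groups. The grey band is the range within 2-fold and dashed lines are the medians of all genes above 1 FPKM throughout, at -0.28, -0.11 and -0.62; Srsf1 lies below all 3 lines, and Hnrnph1 lies at 1.65 in Sham and at -4.48 at AngII 24 h.

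Of the SR proteins, Srsf1 showed the lowest mean antibody ratio of any member. Srsf1 is a founding SR protein that acts in constitutive and alternative splicing and is needed for correct splicing in the postnatal heart. Its level was 9.87 FPKM in Sham IgG, 14.8 in AngII 4 h IgG and 10.5 in AngII 24 h IgG, and 5.15, 4.62 and 5.13 FPKM in the matching anti-EZH2 libraries. All 3 IgG values were above all 3 anti-EZH2 values. The ratio was 0.522, 0.313 and 0.487 in the Sham, 4 h and 24 h groups, and the 2 deposited intervals did not overlap at AngII 4 h. Relative to the median of all genes, these ratios were 0.635, 0.338 and 0.746. The separately normalized table gave Srsf1 ratios of 1.16, 0.347 and 1.07, so that the lower level was present there at AngII 4 h but not in the other 2 groups.

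The antibody difference could be tested only by taking the 3 groups as blocks, which treats different treatments as repeats. With limma on log2(FPKM + 0.1), 0 of 29 members tested passed an adjusted p of 0.05 in either direction, and 0.0232% of 8637 genes were called higher and 0.0% lower. At an unadjusted p under 0.05, 0 members were higher and 1 was lower, Srsf1, beside 2.42% and 4.7% of all genes. The estimate was below 0 for 24 of the 29 members, and for 18 of the 29 once each library was centred on its median. The shares of all genes with an estimate below 0 were not counted in any fit. In the table of the whole series the estimate was below 0 for 10 of 25 members, and 0 members were called. At an unadjusted p under 0.05, 2 members were higher and 0 lower there, beside 196 higher and 85 lower of 5036 genes. The limma estimate for Srsf1 was -1.20 on the log2 scale (SE 0.31, 95% interval -2.02 to -0.38, adjusted p = 0.671). With each library centred on its median, the limma estimate for Srsf1 was -0.88 (unadjusted p = 0.0495, adjusted p = 0.818). Without centring, the interval for Hnrnph1 was much wider than that of Srsf1, -4.26 to 2.11 around -1.07. For Hnrnpab, whose deposited intervals were narrow, it was -1.02 to 0.40 around -0.31. In simulated tables of this size the fit called 35% of genes changed 8-fold, so that smaller differences would mostly have been missed.

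The other 7 SR proteins had lower mean levels than Srsf1. Srsf5, an SR protein regulated in growth and differentiation, was at 6.16, 7.84 and 7.17 FPKM in the Sham, 4 h and 24 h IgG libraries and at 6.03, 11.9 and 5.28 FPKM in anti-EZH2. In the tables of single libraries its highest value was that of AngII 4 h anti-EZH2, and no ratio passed 2-fold. In the table of the whole series its AngII 24 h/Sham ratio in anti-EZH2 was 2.08, or 1.35 relative to the median of all genes. Srsf3, the smallest of the SR proteins and a link between splicing and mRNA export, was at 2.66, 4.74 and 3.56 FPKM in IgG and at 3.46, 4.07 and 5.00 FPKM in anti-EZH2. Its antibody ratio of 1.41 at AngII 24 h was the second highest of the members there, and 2.15 relative to the median of all genes.

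Srsf4, a large SR protein, was the member nearest to the limit of detection other than Srsf12. It was at 0.112 FPKM in Sham IgG, 0.648 in AngII 4 h IgG and 1.01 in AngII 24 h IgG, and at 1.80, 1.09 and 0.856 FPKM in anti-EZH2. The Sham IgG value stood apart from the other 5. Its Sham antibody ratio of 16.0 and its AngII 24 h/Sham ratio of 9.0 in IgG both rest on that 1 low value, and the intervals overlapped in both comparisons. Srsf2, Srsf6, Srsf7 and Srsf9 ranged from 0.805 FPKM for Srsf7 to 6.08 FPKM for Srsf2 over the libraries. Srsf6, Srsf7 and Srsf9 had antibody ratios of 0.460, 0.399 and 0.378 at AngII 24 h and so were among the 11 lower members there, and Srsf2 was just inside the limit at 0.511. The first 3 were, in the table of the whole series, at 0.534, 0.716 and 0.916, and none of them was past 2-fold.

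Among the SR-like proteins, Srsf11 and Srsf10 moved in no common pattern. Srsf11 was at 10.0, 2.75 and 9.06 FPKM in the Sham, 4 h and 24 h IgG libraries and at 4.76, 5.66 and 4.84 FPKM in anti-EZH2. AngII 4 h IgG was the lowest of the 6, and the anti-EZH2 values differed little among themselves. The antibody ratio was accordingly 0.475, 2.06 and 0.535 in the Sham, 4 h and 24 h groups, with overlapping intervals each time. In the table of the whole series these ratios were 0.277, 1.48 and 0.895, so that only the Sham ratio was past 2-fold there. Srsf10, which can act as a splicing repressor when it loses its phosphates, was at 1.78, 2.35 and 2.19 FPKM in IgG and at 4.56, 2.62 and 2.17 FPKM in anti-EZH2. Only the Sham anti-EZH2 value stood out, with a ratio of 2.56 and overlapping intervals.

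The A/B-type hnRNPs held 2 of the 4 highest members by mean level, and both differed little between libraries in the tables of single libraries. Hnrnpa2b1, an abundant RNA binding protein of splicing and transport, was at 19.2, 22.5 and 20.5 FPKM in IgG and at 16.7, 18.2 and 13.5 FPKM in anti-EZH2. Its ratio at AngII 24 h was 0.656 with intervals apart, and close to the median of all genes. Hnrnpab was at 13.0, 13.3 and 15.4 FPKM in IgG and at 10.9, 11.6 and 10.9 FPKM in anti-EZH2. Both genes were lower in anti-EZH2 in each group in these tables, by less than 2-fold. The table of the whole series turned the direction of one, where the Hnrnpab ratio was above 1 in each group, at 1.12, 1.06 and 1.17, and that of Hnrnpa2b1 was 0.988, 1.0 and 0.991. Hnrnpab differed more between libraries there, from 3.48 FPKM in AngII 4 h IgG to 14.7 in AngII 24 h anti-EZH2. Its AngII 24 h/Sham ratios there were 3.06 in IgG and 3.2 in anti-EZH2, and 1.99 and 2.09 relative to the median of all genes.

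Hnrnpa1, the best studied hnRNP splicing repressor, was at 6.25, 8.64 and 7.14 FPKM in IgG and at 4.15, 8.06 and 5.55 FPKM in anti-EZH2. Hnrnpa3 was at 8.12, 9.73 and 6.45 FPKM in IgG and at 8.90, 6.31 and 5.51 FPKM in anti-EZH2. Neither passed 2-fold in any comparison in the tables of single libraries. In the table of the whole series the AngII 24 h/Sham ratio of Hnrnpa1 in anti-EZH2 was 2.04, or 1.33 relative to the median of all genes. Hnrnpa3 has no entry there. Both have processed copies elsewhere in the genome, and how shared reads were counted is not given in the sources used here.

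Hnrnpd, also known as AUF1 and a regulator of mRNA decay, was at 6.42, 8.97 and 9.67 FPKM in IgG and at 3.13, 9.46 and 4.26 FPKM in anti-EZH2. The Sham and AngII 24 h anti-EZH2 libraries were low, with antibody ratios of 0.488 and 0.441, and the ratio at AngII 4 h was 1.06. The table of the whole series gave 0.783 in Sham and 0.339 at AngII 24 h. Its close relative Hnrnpdl was at 1.84, 5.65 and 2.77 FPKM in IgG and at 2.39, 2.96 and 2.68 FPKM in anti-EZH2. Only AngII 4 h IgG stood out in the tables of single libraries, past 2-fold against Sham IgG at 3.08 with intervals apart. In the table of the whole series that ratio was 2.75, but the highest Hnrnpdl value was 4.1 FPKM in AngII 24 h anti-EZH2. The antibody ratios of Hnrnpdl were 1.3, 0.523 and 0.969 in the Sham, 4 h and 24 h groups. In the table of the whole series they were 2.51, 1.08 and 2.39.

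Hnrnpa0 has 1 annotated transcript of 1 exon (2678 nt), so its FPKM could be turned into reads at the inferred depth. It had about 35, 59 and 31 reads in the Sham, 4 h and 24 h IgG libraries and 39, 61 and 29 in anti-EZH2. The antibody ratios from these reads were 0.849 (exact 95% binomial interval 0.524 to 1.38), 0.684 (0.47 to 0.995) and 0.747 (0.434 to 1.28), which cover counting error only. Those of Sham and AngII 24 h hold 1 and that of AngII 4 h ends just under it. At this inferred depth, differences of this size in Hnrnpa0 were thus at the limit of what its reads can show. The depth was itself settled with the deposited Hnrnpa0 intervals, so these counts are not independent of them. A depth 2 times as large would give 58 to 123 reads, for which no interval was computed.

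The F/H-type hnRNPs, which bind runs of guanines, held the most variable member. Hnrnph1 was at 7.33 FPKM in Sham IgG, 10.9 in AngII 4 h IgG and 45.5 in AngII 24 h IgG, and at 23.0, 8.01 and 2.04 FPKM in anti-EZH2. It was highest in AngII 24 h IgG and lowest in the anti-EZH2 library of the same group. The antibody ratio was 3.14, 0.736 and 0.0448 in the Sham, 4 h and 24 h groups, the last with intervals apart. The separately normalized table of the whole series gave 3.15, 1.77 and 0.241. In 2 libraries the Hnrnph1 FPKM lay outside its own deposited interval, which ran from 9.60 to 30.7 in AngII 24 h IgG and from 8.04 to 21.2 in Sham anti-EZH2. These were the only such values among the 181.

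Hnrnph1 (chromosome 11, 50376990 to 50386528, plus strand, mm10) has 18 transcripts in GENCODE M21, of which 15 are processed transcripts without a reading frame. It was the only member with annotated transcripts shorter than the assumed mean fragment of 200 bases. The 2 of that kind are shown because they overlap the coding exons of the main transcript, so that a fragment of the coding sequence can be assigned to either. Capitals mark bases in coding exons of the main transcript and lower case marks other bases. The shorter is chr11:50383812-50384693 (159 nt, 2 exons) and the longer is chr11:50383242-50383920 (163 nt, 2 exons), both on the plus strand and taken from GENCODE M21.
Hnrnph1, 159 nt transcript: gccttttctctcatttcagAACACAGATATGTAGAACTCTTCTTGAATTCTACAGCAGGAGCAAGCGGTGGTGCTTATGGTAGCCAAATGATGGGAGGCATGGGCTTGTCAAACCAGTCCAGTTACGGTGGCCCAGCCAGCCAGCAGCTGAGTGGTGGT
Hnrnph1, 163 nt transcript: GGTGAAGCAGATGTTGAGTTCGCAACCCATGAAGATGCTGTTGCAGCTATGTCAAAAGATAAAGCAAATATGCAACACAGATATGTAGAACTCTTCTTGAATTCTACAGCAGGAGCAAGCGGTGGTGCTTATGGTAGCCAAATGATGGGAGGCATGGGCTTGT

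With an effective length model (fragments of mean 200 and SD 80 bases) 1 read assigned to the 159 nt transcript would be worth 5.39 FPKM in AngII 24 h IgG, and 1 read assigned to the 2225 nt of the main coding transcript would be worth 0.13 FPKM. Which transcripts received the reads is not in the gene tables, and the part of the short transcripts in the Hnrnph1 values was not tested.

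The other F/H-type genes varied less. Hnrnpf was at 9.63, 5.69 and 5.50 FPKM in IgG and at 7.57, 6.78 and 9.50 FPKM in anti-EZH2. Its AngII 24 h antibody ratio of 1.73 was the highest of the members in that group, and 2.65 relative to the median of all genes. Hnrnph2 was at 2.58, 2.03 and 1.84 FPKM in IgG and at 1.87, 1.21 and 0.658 FPKM in anti-EZH2, so that each anti-EZH2 value was below its IgG partner, with a ratio of 0.357 at AngII 24 h that was 0.525 in the table of the whole series. Hnrnph3 was at 4.42, 2.05 and 2.72 FPKM in IgG and at 2.09, 3.82 and 2.29 FPKM in anti-EZH2, with no common direction.

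Hnrnpk, a poly(C) binding protein of transcription, splicing and translation, was the highest member by mean level. It was at 29.6, 23.9 and 25.2 FPKM in IgG and at 16.8, 27.4 and 16.8 FPKM in anti-EZH2. Sham and AngII 24 h anti-EZH2 were the low libraries, and the antibody ratios of 0.567, 1.15 and 0.666 stayed within 2-fold. Hnrnpl, which binds CA repeats, was at 9.14, 11.2 and 12.2 FPKM in IgG and at 9.86, 14.7 and 11.5 FPKM in anti-EZH2. It lay above the median of all genes in each of the 3 antibody comparisons. Its relative Hnrnpll was at 0.818, 2.39 and 0.766 FPKM in IgG and at 0.847, 1.15 and 0.658 FPKM in anti-EZH2, with only AngII 4 h IgG apart from the rest.

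Hnrnpr was at 5.46, 2.11 and 4.87 FPKM in IgG and at 8.34, 4.13 and 1.17 FPKM in anti-EZH2. The antibody ratio was 1.53, 1.96 and 0.239 in the Sham, 4 h and 24 h groups. Its intervals were wide, with a median half-width of 75.0% of the FPKM, and overlapped each time. Hnrnpc, which binds uridine tracts, and Hnrnpm ranged from 2.52 to 4.97 and from 2.85 to 5.85 FPKM. Hnrnpm was past 2-fold lower in anti-EZH2 at AngII 24 h, at a ratio of 0.488 with overlapping intervals. The table of the whole series turned its direction there, with a ratio of 1.61 from 7.98 FPKM in IgG and 12.8 in anti-EZH2. Hnrnpc was the 1 member lower with intervals apart in Sham, at a ratio of 0.544.

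The U-type hnRNPs, scaffold proteins that bind both RNA and chromatin, were expressed at low levels. Hnrnpu was at 0.919, 2.12 and 4.04 FPKM in IgG and at 1.10, 2.79 and 0.663 FPKM in anti-EZH2. AngII 24 h held its highest IgG value and its lowest anti-EZH2 value, and the antibody ratio of 0.164 there was the second lowest of the members. Its intervals were wide, with a median half-width of 81.6% of the FPKM, and overlapped in every comparison. Hnrnpu overlaps Cox20 on the other strand, and has no entry in the table of the whole series. Hnrnpul2 ranged from 1.29 to 3.37 FPKM, with a ratio of 0.382 and intervals apart at AngII 24 h (0.613 in the table of the whole series), and Hnrnpul1 ranged from 2.67 to 5.70 FPKM.

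**Figure D4:**
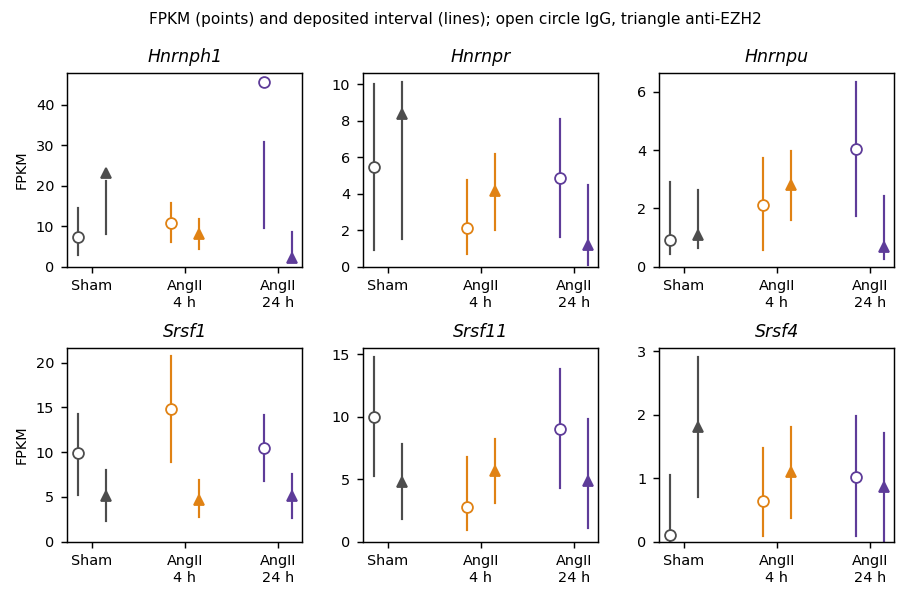
FPKM (points) and deposited intervals (lines) of Hnrnph1, Hnrnpr, Hnrnpu, Srsf1, Srsf11 and Srsf4 in the 3 groups, with open circles for IgG and triangles for anti-EZH2; each panel has its own FPKM axis from 0. Hnrnph1 lies outside its own interval at 45.5 and 23.0 FPKM, and the Srsf1 intervals are apart at AngII 4 h.

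The comparison of AngII with Sham asks how the recovered transcripts differed after 4 and 24 h of the hormone, and both times share the Sham library of their antibody. Fewer cells of a type and less RNA per cell cannot be told apart in these tissue samples. In IgG, 3 of 29 members were past 2-fold higher and 3 lower at AngII 4 h, beside 19.6% and 14.5% of all genes. The higher members were Hnrnpdl, Hnrnpll and Hnrnpu at 3.08, 2.91 and 2.31, and the lower were Srsf11, Hnrnpr and Hnrnph3 at 0.274, 0.386 and 0.464. At AngII 24 h, 4 of 29 were higher and 0 lower, beside 22.9% and 12.8% of all genes. These 4 were Srsf4 at 9.0, Hnrnph1 at 6.21, Hnrnpu at 4.39 and Hnrnpul2 at 2.24. Of these, in the table of the whole series, Srsf4 and Hnrnpul2 were also past 2-fold, Hnrnph1 was at 1.46, and Hnrnpu has no entry. The 45.5 FPKM behind the Hnrnph1 ratio is one of the values outside their own interval.

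In anti-EZH2, 2 of 30 members were past 2-fold higher and 2 lower at AngII 4 h, beside 23.3% and 12.9% of all genes. Hnrnpd at 3.02 and Hnrnpu at 2.54 were the higher, and Hnrnph1 at 0.348 and Hnrnpr at 0.495 the lower. Hnrnpd, in the table of the whole series, was at 1.07 and 0 members were past 2-fold higher, while both lower genes were past 2-fold there too. After division by the median ratio of all genes, 1.31, the count was 1 higher and 5 lower, with no share of all genes counted on that scale. At AngII 24 h, 0 of 28 were higher and 6 lower, beside 15.8% and 23.4% of all genes. The lowest were Hnrnph1 at 0.0887, Hnrnpr at 0.140 and Hnrnph2 at 0.352, and these 3 of the 6 were also past 2-fold in the table of the whole series. The other 3 were Srsf10 and Srsf4, each at 0.475, and Srsf2 at 0.499, which that table put at 0.586, 1.09 and 0.942. With the tables of single libraries, no member had intervals apart and a ratio past 2-fold in either anti-EZH2 comparison. With intervals apart at any fold, 1 member was higher and 0 lower at AngII 4 h in IgG, Hnrnpdl, beside 5.05% and 1.89% of all genes, and 1 and 0 at AngII 24 h, Hnrnpul2, beside 4.85% and 1.13%. In anti-EZH2, 2 were higher and 0 lower at AngII 4 h, Hnrnpa1 and Hnrnpl, beside 9.83% and 2.22%, and 0 and 0 at AngII 24 h, beside 2.03% and 4.95%. The median log2 AngII/Sham ratio of the members was 0.30 and 0.25 in IgG and 0.21 and -0.13 in anti-EZH2, and that of all genes was 0.21, 0.25, 0.37 and -0.09.

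The separately normalized table of the whole series holds 29 of the members. At AngII 24 h, 10 of 26 were past 2-fold higher and 2 lower in IgG, and 10 of 25 and 2 in anti-EZH2. Its median ratio of all genes was also raised there, to 1.54 and 1.53. After division by it, 3 members were past 2-fold higher and 6 lower in IgG, and 2 higher and 4 lower in anti-EZH2. The shares of all genes past 2-fold in that table were not counted, so these member counts have no background beside them.

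The other splicing gene lists are given by their counts, to be read beside the shares of all genes above, and no test compared them with the members. Of 32 core spliceosome proteins, 4 of 28 compared were past 2-fold higher and 9 lower in Sham, 1 of 31 higher and 6 lower at AngII 4 h, and 4 of 28 higher and 9 lower at AngII 24 h. Prpf3, a protein of the U4/U6 particle, had the lowest mean antibody ratio of the core spliceosome genes compared in all 3 groups. Prpf3 was past 2-fold lower in each group, at 0.369, 0.309 and 0.448. The share of all genes past 2-fold lower in each group was not counted. It was at 3.81, 3.97 and 3.48 FPKM in IgG and at 1.40, 1.23 and 1.56 FPKM in anti-EZH2. Of 16 other hnRNP proteins, 2 of 14 were higher and 2 lower in Sham, 2 of 15 and 2 at AngII 4 h, and 2 of 15 and 4 at AngII 24 h. Ptbp1, the polypyrimidine tract binding repressor, had the highest mean ratio, at 2.92, 1.06 and 3.13.

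Of 18 SR-related proteins and SR kinases, 0 of 18 were higher and 3 lower in Sham, 3 of 17 and 1 at AngII 4 h, and 1 of 17 and 7 at AngII 24 h. Clk1, a kinase that phosphorylates SR proteins, was below its IgG partner in each group, at 0.729, 0.412 and 0.555. Of 12 heart splicing regulators, 0 of 11 were past 2-fold in Sham, 1 of 12 was lower at AngII 4 h, and 1 was higher and 2 lower at AngII 24 h. Celf1, a regulator of the fetal splicing pattern, was at 12.4 FPKM in AngII 24 h IgG and 2.25 in the matching anti-EZH2 library, a ratio of 0.182.

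Transcripts annotated for decay were more frequent among the members than among other expressed genes. In GENCODE M21, 19 of the 31 genes (61.3%) have a transcript annotated for nonsense-mediated decay, 9 of 11 Srsf genes (81.8%) and 10 of 20 Hnrnp genes. Among the 4034 protein-coding genes above 1 FPKM in all 6 libraries, 30.6% have one. A retained intron transcript is annotated for 71.0% of the members and 64.8% of those genes, and the median number of transcripts is 7 and 6. Annotation depth differs between genes, and the gene tables do not say which transcript was recovered.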

How the data were processed

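RNA from RIP of mouse left ventricle was sequenced as 6 libraries. FPKM values with an interval per gene were deposited by the authors, 1 table a library, and a separate table of the whole series holds FPKM normalized on its own. The submitters' processing notes name TopHat2 and mm10, and the program that made the FPKM values is not given in the sources used here. The members, gene lists and role groups were chosen with earlier results of these data known.

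Rows of 1 gene ID were summed (93 IDs had more than 1 row, and a patch copy of Srsf1 was at 0), and values under 0.001 FPKM were set to 0. Ratios used no pseudocount and no scaling, and a gene was compared above 1 FPKM in at least 1 of the 2 libraries and above 0 in both. With 1 library per group and antibody, no ratio has a p-value. The antibody contrast used limma 3.58.1 in R 4.3.3 on log2(FPKM + 0.1), mean FPKM above 1, with group as a block and Benjamini-Hochberg adjustment, and was tested on simulated data. Values in every library are given for the 10 highest members and the 3 highest and 3 lowest in each of the 7 comparisons. Of the other splicing genes, some of the genes with the highest or lowest mean antibody ratio are named.

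Depth was inferred from low FPKM of genes with 1 transcript of 1 exon, by a rule settled on after other rules had been tried on these data, most of which gave the smaller unit below, and with depths from an earlier analysis of these data known. Within 0.1 reads, 43.1% to 52.0% of low values were whole (20% by chance). A unit 0.5 times as large, which gives 2 times the depth, gave 54.6% to 61.2%. The larger unit was kept because the deposited Hnrnpa0 intervals, if they span 2 Poisson SDs each way, imply 33 to 56 reads, 0.904 to 1.13 times its count and 0.452 to 0.564 times that of the smaller unit. The read counts and the Hnrnpa0 intervals are therefore approximate.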

Additional observations from a re-analysis of the deposited data

Results flagged for a closer look

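For 2 members the anti-EZH2/IgG ratio was past 2-fold in opposite directions in different groups. Hnrnph1 was at 3.14 in Sham and at 0.0448 at AngII 24 h, and Srsf11 was at 0.475 in Sham and at 2.06 at AngII 4 h. In the table of the whole series Hnrnph1 was at 3.15 and 0.241 and Srsf11 at 0.277 and 1.48, so that Srsf11 was not past 2-fold in opposite directions there. With 1 library per group and antibody, neither difference between groups was tested.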

How the results depend on the processing

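The median of the members changed by less than 1.5-fold under each alternative except at AngII 24 h in the antibody comparison (log2 0.01 after division by the median of all genes, 0.18 in the table of the whole series) and at AngII 24 h/Sham in anti-EZH2 (0.88 in the table of the whole series). Changes within that limit still turned its sign. In the antibody comparison in Sham, log2 -0.20 became 0.09 after the division and 0.16 in the table of the whole series. For AngII 4 h/Sham, 0.30 in IgG became -0.20 in that table. In anti-EZH2, 0.21 became -0.13 there and -0.19 after the division. For AngII 24 h/Sham in IgG, 0.25 became -0.02 after the division. Counts are given as higher and lower, in the order antibody ratio in Sham, at 4 h and at 24 h, then AngII/Sham at 4 h and 24 h in IgG and at 4 h and 24 h in anti-EZH2, and only where they moved by over 1.5 times. Without a filter on low values none did. With FPKM + 1 they were 0 lower; 0 and 1; 5 lower; 1 higher; 2 higher; 1 and 1; and 2 lower. Divided by the median of all genes they were 0 lower; 3 and 1; 2 and 3; then 1 lower at 24 h in IgG and 1 and 5 at 4 h in anti-EZH2. With intervals also apart they were 0 and 0; 0 and 1; 2 lower; 1 and 0; 1 higher; 0 and 0; and 0 lower. In the table of the whole series they were 1 lower in Sham, 2 and 3 at 24 h, then 5 lower, 10 and 2, 0 and 5, and 10 and 2. Divided by its own median, chosen after seeing the data, they were 1 lower, 2 and 3, then 6 lower at 24 h in IgG, 0 and 5, and 2 higher. The cause of these changes was not tested, and the shares of all genes past 2-fold under these alternatives were not counted. In limma, 0 members were called under each alternative and without each pair of libraries (lowest 0, highest 0), and Srsf1 no longer had an unadjusted p under 0.05 without the AngII 4 h pair or in the table of the whole series, where 2 members were higher at that level. The limma fit pairs the libraries of a group by its block of groups, and without that block 0 members were called as well. The labels give no replicate numbers to pair by. Reads were inferred for Hnrnpa0 only, and at 29 to 61 inferred reads its intervals held or nearly reached a ratio of 1. The smaller unit would give it 58 to 123 reads, for which no interval was computed.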
